A study of Mus musculus with 6 samples.

Results

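The mRNAs of the small-subunit ribosomal proteins were examined in the transcriptomes of fully-grown oocytes (FGOs) at the germinal vesicle (GV) stage, which have finished growth and wait in prophase of the first meiosis. The genes were taken by symbol, as every row named Rps followed by a number and at most 1 of the letters a, x or l, or named Rpsa. This gave 32 of the 24255 genes in the table. The wild type (WT) and the Lsm14b-KO group had 3 libraries each, every library was made from 20 oocytes, and the values were FPKM, that is, fragment numbers scaled to the length of the transcript and the size of the library. LSM14B is an RNA-binding protein of oocytes, and the comparison asked which transcripts differ when it is missing. The Lsm14b-KO females were homozygous for a knockout-first tm1a allele, a reporter-tagged insertion into Lsm14b that acts in every cell of the animal. Both genotypes were on a C57BL/6J background and received 5 IU of PMSG, a gonadotropin that stimulates follicles, 46 h before their oocytes were taken. No age was given for these animals in the sources used here, and nothing said that the libraries of a group came from different animals. The p-values therefore measure the spread between these libraries, which may be technical.

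The small (40S) subunit binds the mRNA, carries the decoding centre and scans for the start codon. Its proteins sit on the 18S rRNA in a head and in a body with a platform, and the mRNA passes between the head and the body. Growing oocytes build up a store of ribosomes and of dormant mRNAs that serves meiosis and the early embryo, and transcription is nearly silent once growth is complete. Ribosomal protein mRNAs usually start with a run of pyrimidines, the 5′ terminal oligopyrimidine (TOP) motif, through which their translation answers to growth signals. Many ribosomal protein genes also have processed pseudogenes, which are copies of their mRNA inserted elsewhere in the genome.

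The libraries carried the RNA of oocytes. All 12 oocyte markers listed reached 1 FPKM, and 7 of 15 markers of cumulus and granulosa cells, among them Amh and Foxl2, were listed at 0 in every library. The 15 markers together summed to 9.73 to 13.5 FPKM in WT and 6.14 to 10.2 FPKM in Lsm14b-KO libraries, most of it from Cyp19a1, which was lower in Lsm14b-KO oocytes (10.1 ± 1.65 against 4.75 ± 1.51 FPKM, SD, n = 3, adjusted p 0.0426 in limma). Of the 15 markers only 3 were tested, with 1 fitted below 0 and 2 above 0. Of these 3, 1 was called lower and 0 higher in limma, and 1 had all its Lsm14b-KO values above all WT values. The part of such cells in the results was not tested. Lsm14b itself had 2.77, 3.98 and 1.72 FPKM in WT and 0, 0 and 0.10 FPKM in Lsm14b-KO oocytes (log2 fold change -1.85, SE 0.25, adjusted p 0.0038 in limma). The exact permutation test of its 6 values had p = 0.1 (two-sided), and 3 against 3 libraries cannot give a smaller one. The Lsm14b-KO libraries were not alike. Across the 6398 tested genes, Lsm14b-KO replicate 1 correlated with the WT libraries at r = 0.952 to 0.954, with Lsm14b-KO replicate 3 at 0.960 and with replicate 2 at 0.917. Replicate 2 was the farthest from WT, at 0.867 to 0.890. Results are therefore also given without each library. Read counts were not used here, and depth was estimated from the lowest FPKM. Relative to WT replicate 1 this estimate was 1.03 to 1.14 in the other WT libraries and 1.33, 1.95 and 2.17 in the Lsm14b-KO libraries in the order of their numbers. It depends on how the FPKM were scaled and may differ from the number of reads. The sums of FPKM fell from 1141324 or more in WT to 1029728, 564671 and 676656.

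WT oocytes expressed the small-subunit genes at very unequal levels. By their WT mean, 10 genes stood at 100 FPKM or more, 12 between 10 and 100, 8 between 1 and 10, and 2 under 1 FPKM. The highest was Rps27l, which codes for a vertebrate paralog of RPS27 known as a p53 target, at 702, 718 and 599 FPKM across WT replicates 1, 2 and 3. Rps4x, the X-linked gene of RPS4, followed with 646, 675 and 569 FPKM. These placed 234th and 246th among all genes of the table. Further high levels were those of Rps24 (WT mean 397 ± 77.6 FPKM, SD, n = 3), Rps15 (386 ± 39.9) and Rps13 (335 ± 27.2). At the other end, Rps3 had 2.27 ± 0.196, Rps7 1.87 ± 1.11, Rps15a 1.53 ± 0.265 and Rpsa 0.913 ± 0.454 FPKM, although the subunit holds each of these proteins once. Rps12, which codes for a protein of the beak of the head, was listed at 0 in all 3 WT libraries and in Lsm14b-KO replicates 1 and 2, and at 1.77 FPKM in Lsm14b-KO replicate 3. An estimate of 0 in such a table can be a failed one.

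The order of the WT levels held only in steps. Of 31 pairs of neighbours, the ranges of the 3 WT libraries overlapped in 21. The 10 pairs that were separated included Rps13 above Rps29, Rps4l above Rps27a, Rps27a above Rps26, Rps14 above Rps6, Rps23 above Rps2, and Rps2 above Rps27. The ranges of Rps23 and Rps2 all but touched, with the lowest WT value of Rps23 at 4.158 and the highest of Rps2 at 4.157 FPKM. A further 1 of the 10 is Rpsa above Rps12, where the values of 0 may be failed estimates. The ranges of Rps27l and Rps4x overlapped, although Rps27l was the higher in each of the 3 WT libraries, and those of Rps24, Rps15 and Rps13 overlapped each with the next.

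**Figure D1:**
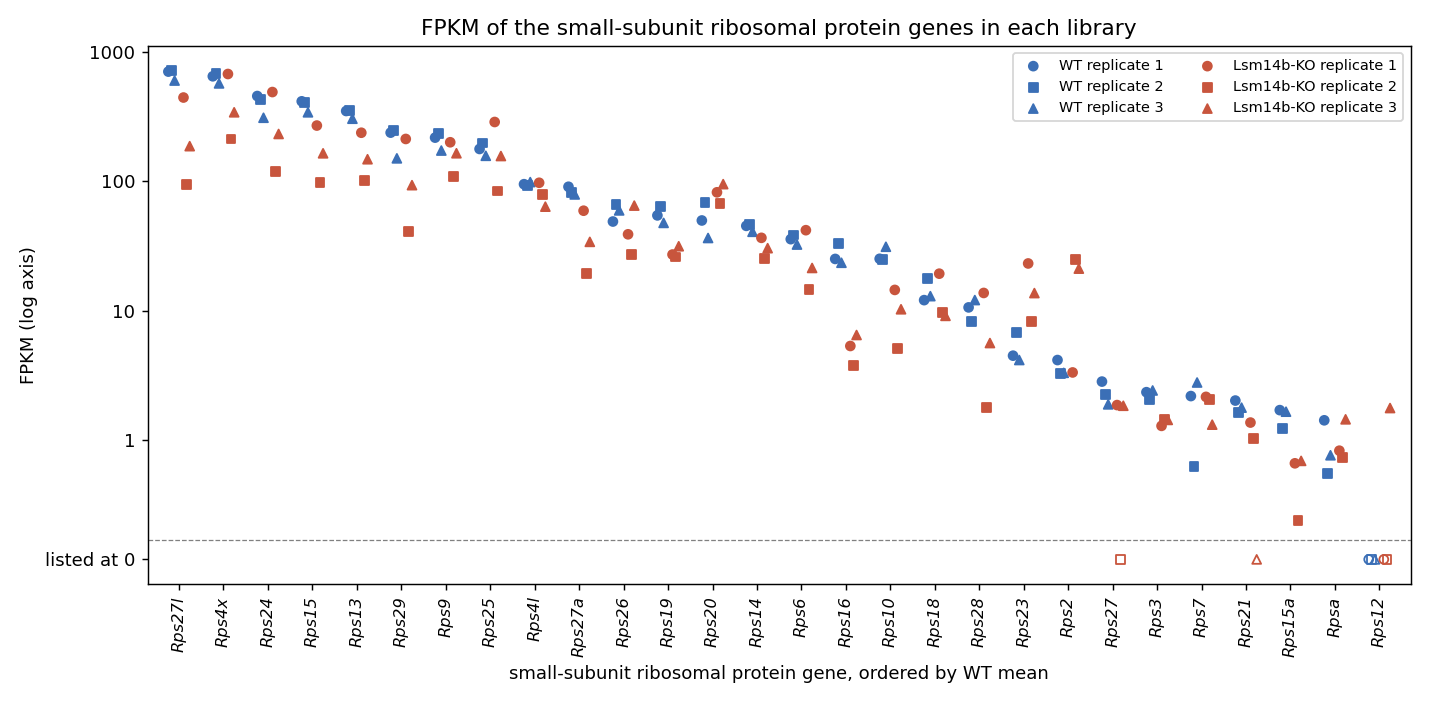
FPKM on a log axis of 28 small-subunit ribosomal protein genes, ordered by their WT mean, with 1 point per library (WT in blue, Lsm14b-KO in red, shape for the replicate number) and open points for values listed at 0. Levels ran from 673 FPKM on average for Rps27l to 0 for Rps12 in WT, and Lsm14b-KO replicate 2 (red squares) was the lowest Lsm14b-KO library for most genes.

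Levels were also set beside the number of near-identical copies, counted as other annotated genes whose transcripts matched over 200 nt or more with an identity of 95% or above. Reads of such copies can be shared out between rows, so the levels of genes with many copies are uncertain. The 7 genes with 0 or 1 copy had a median WT level of 171 FPKM, the 13 with 2 to 6 copies 51.4 FPKM, and the 12 with 7 or more copies 12.3 FPKM. Rps2 had 32 copies and Rps12 had 24, the highest numbers, all or mostly annotated pseudogenes. Across the 32 genes, Spearman's rho of the WT level was -0.37 with the number of copies, 0.02 with mRNA length and, over 31 genes, -0.05 with coding length. The genes share libraries and base composition, so these values describe the table and carry no test. Rps3 and Rps21 were low with only 1 copy each. The gene Rps15a stood below rows of its own processed pseudogenes: Rps15a-ps6 had 58.1, 61.0 and 49.0 FPKM and Rps15a-ps4 had 30.6, 35.9 and 37.3 FPKM in WT oocytes, against 1.71, 1.23 and 1.66 FPKM for Rps15a.

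**Figure D2:**
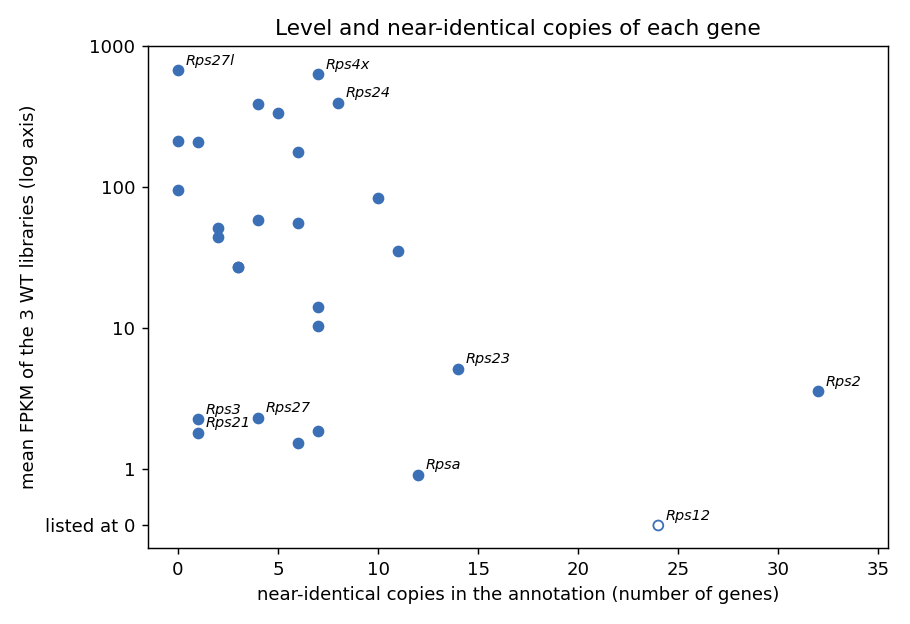
Mean FPKM of the 3 WT libraries on a log axis against the number of near-identical copies in the annotation, 1 point for each of 28 genes. The genes with the most copies, Rps2 (32) and Rps12 (24), stood at 3.59 FPKM and at 0, while genes with 0 or 1 copy ran from 1.81 to 673 FPKM.

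In Lsm14b-KO oocytes 5 of the 32 genes were lower and 1 was higher at an adjusted p under 0.05 in limma. The 5 were Rps16, Rps10, Rps19, Rps15a and Rps27l, and the 1 was Rps23. The 5 make 15.6% of the genes, against 15.2% of all 6398 tested genes that were lower, and the 1 makes 3.12%, against 6.38% of all that were higher. All 32 passed the filter of 1 FPKM in at least 1 library, but Rps12 did so only by its value in Lsm14b-KO replicate 3 and Rps15a only in WT. Of the 30 that reached it in both groups 4 were lower (13.3%) and 1 higher (3.33%), against 16.2% and 5.63% of the 4899 such genes in the table. At an unadjusted p under 0.05 in limma there were 14 of the 32, against 2518 of all 6398 tested genes. The share with all Lsm14b-KO values below all WT values was 15 of 32 (46.9%), against 26.0% of all tested genes, and 1 gene (3.12%) had all its Lsm14b-KO values above, against 19.1%. Of the fitted differences 25 lay below 0 (78.1%, against 53.2% of all genes), with a median log2 fold change of -0.71 against -0.08 for all genes. The share of calls was thus near that of the table, while the median lay lower and the share of genes with all Lsm14b-KO values below WT was higher. With values of 0 left out as missing, the median was -0.56.

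Rps16 had the clearest difference. It codes for the protein whose tail reaches from the head to the tRNA in the P site, and lies on chromosome 7 from 28350652 to 28353155 on the plus strand (GRCm38/mm10), overlapping the annotated non-coding RNA AF357399. Its level was 25.1, 33.2 and 23.4 FPKM in WT and 5.34, 3.77 and 6.49 FPKM in Lsm14b-KO oocytes. All 3 Lsm14b-KO libraries, replicate 1 included, were far below the lowest WT library, and the mean level in Lsm14b-KO was 0.191 of that in WT. On the log2(FPKM + 1) scale its fitted difference was -2.20 (SE 0.27), with an adjusted p of 0.00279 in limma. Among the 32 genes, Rps16 alone stayed past the threshold in all 14 alternatives (other filters, pseudocounts, scalings and fits without 1 library among them), with adjusted p 0.000353 to 0.0209 in limma and a log2 fold change of -2.38 to -1.58.

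Further genes of the head were lower. Rps10 codes for a head protein near the mRNA entry that is ubiquitylated when ribosomes collide, and lies on chromosome 17 from 27630418 to 27636669 on the minus strand. It had 25.2, 24.8 and 31.2 FPKM in WT and 14.5, 5.13 and 10.3 FPKM in Lsm14b-KO libraries (log2 fold change -1.45, SE 0.36, adjusted p 0.0290 in limma). The groups did not overlap, and replicate 1 was the nearest to WT. The call held in 6 of 14 alternatives and was lost with all libraries brought to equal FPKM sums (-0.81, adjusted p 0.0705 in limma), under quantile normalization (-1.10, adjusted p 0.0676 in limma), after correction for length and GC content (-0.97, adjusted p 0.0608 in limma) and in 4 of 6 fits without 1 library. With no filter on low values the call was lost as well (adjusted p 0.0684 in limma). Rps10 overlaps the read-through gene RPS10-NUDT3, so reads of both cannot be told apart. Rps19, which codes for a head protein needed to mature the 18S rRNA and mutated in Diamond-Blackfan anaemia, lies on chromosome 7 from 24884371 to 24889806 on the plus strand. It had 54.5, 63.6 and 47.6 FPKM in WT and 27.1, 26.0 and 31.5 FPKM in Lsm14b-KO (log2 fold change -0.94, SE 0.27, adjusted p 0.0412 in limma). Here the Lsm14b-KO libraries lay close together, with replicate 1 no nearer to WT than replicate 3. The call of Rps19 held in 4 of 14 alternatives. It was lost at equal FPKM sums (-0.26, adjusted p 0.505 in limma), under quantile normalization (-0.43, adjusted p 0.249 in limma) and after the length and GC correction (-0.29, adjusted p 0.393 in limma). It was also lost with the replicate number as a block (adjusted p 0.0889 in limma) and with no filter on low values (adjusted p 0.0623 in limma). Of the 6 fits without 1 library, the call held in only 1.

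The remaining head genes did not pass the test. Rps15, whose protein sits above the A and P sites, had 414, 404 and 341 FPKM in WT and 269, 97.4 and 164 in Lsm14b-KO (log2 fold change -1.24, adjusted p 0.0608 in limma). Rps27a, which codes for ubiquitin joined to a ribosomal protein, had 90.6, 81.5 and 79.0 FPKM in WT and 59.2, 19.3 and 34.0 in Lsm14b-KO (-1.27, adjusted p 0.0583 in limma). Both had separated groups. Rps3, of the mRNA entry, had 2.35, 2.05 and 2.42 against 1.29, 1.44 and 1.43 FPKM, also without overlap (-0.45, adjusted p 0.0998 in limma). Rps29, a small zinc-binding protein, had 237, 248 and 150 FPKM against 212, 41.0 and 93.2, where replicate 1 lay within the WT range. Rps28 (10.6, 8.30 and 12.1 against 13.7, 1.78 and 5.62 FPKM), Rps18 (12.1, 17.7 and 12.9 against 19.3, 9.72 and 9.12) and Rps25 (177, 197 and 157 against 287, 84.0 and 156) had their highest value of all 6 libraries in Lsm14b-KO replicate 1.

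Rps20, a head protein that is ubiquitylated on stalled ribosomes like RPS10, was at the opposite side. It had 49.7, 68.1 and 36.4 FPKM in WT and 82.1, 67.5 and 94.9 FPKM in Lsm14b-KO libraries, with an overlap of 1 pair of libraries (log2 fold change 0.69, SE 0.33, adjusted p 0.154 in limma). It passed the test with all libraries brought to an equal FPKM sum (1.37, adjusted p 0.0282 in limma) and under quantile normalization (1.25, adjusted p 0.0298 in limma). In all, 3 of the 14 head genes were lower, 0 were higher at an adjusted p under 0.05 in limma (7 had an unadjusted p under 0.05), 7 had all Lsm14b-KO values below WT, and the median difference was -0.84 (log2). The called shares are 21.4% and 0%, against 15.2% and 6.38% of all tested genes, and 26.0% of all tested genes had all Lsm14b-KO values below WT.

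Of the 16 body and platform genes 1 was lower and 1 was higher (6.25% each, against 15.2% and 6.38% of all tested genes). An unadjusted p under 0.05 in limma was found for 6 of them. All Lsm14b-KO values lay below WT for 7 (43.8%, against 26.0% of all tested genes) and above WT for 1 (6.25%, against 19.1%). Rps15a, a protein of the body (chromosome 7 from 118104372 to 118116188, minus strand), had 1.71, 1.23 and 1.66 FPKM in WT and 0.662, 0.239 and 0.692 FPKM in Lsm14b-KO libraries (log2 fold change -0.73, SE 0.21, adjusted p 0.0447 in limma). It reached the filter's 1 FPKM only in WT, the group where it is high. It passed in 5 of 14 alternatives (adjusted p 0.0262 to 0.189 in limma) and was lost at a pseudocount of 0.1, at equal FPKM sums, with the block and in 5 of 6 fits without 1 library. Every value was under 2 FPKM, and the processed pseudogene rows moved with it: Rps15a-ps6 had 39.3, 17.7 and 31.2 FPKM in Lsm14b-KO (-0.97, adjusted p 0.0769 in limma) and Rps15a-ps4 had 24.5, 13.8 and 17.9 FPKM (-0.88, adjusted p 0.0627 in limma). Which of these rows the reads came from was not tested.

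Rps23 was the gene that rose. It codes for the protein at the decoding centre that carries a hydroxylated proline, and lies on chromosome 13 from 90922958 to 90924950 on the plus strand. It had 4.49, 6.80 and 4.16 FPKM in WT and 23.2, 8.24 and 13.7 FPKM in Lsm14b-KO libraries (log2 fold change 1.30, SE 0.37, adjusted p 0.0439 in limma). All 3 Lsm14b-KO libraries were above all WT libraries, and replicate 1 lay farthest from WT. The call held in 8 of 14 alternatives (adjusted p 0.00212 to 0.14 in limma), all other scalings among them. It was lost with no filter on low values (adjusted p 0.1 in limma) and with the replicate number as a block (adjusted p 0.0567 in limma). Of the 6 fits without 1 library, the call held in only 2. Rps23 has 14 near-identical copies, and reads that match them equally cannot be told apart. Rps2, whose protein lines the mRNA entry channel (chromosome 17 from 24718116 to 24721929, plus strand), had 4.16, 3.29 and 3.31 FPKM in WT and 3.33, 24.8 and 21.1 FPKM in Lsm14b-KO libraries. Replicates 2 and 3 were far above WT, whereas replicate 1 lay within the WT range, and the difference did not pass (1.57, SE 0.62, adjusted p 0.102 in limma). It passed once Lsm14b-KO replicate 1 was left out (2.39, adjusted p 9.03e-05 in limma). It has 32 near-identical copies and shares its locus with the small nucleolar RNA host gene Snhg9 and 2 small nucleolar RNAs.

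The abundant body genes followed the libraries. Rps13 had 349, 353 and 304 FPKM in WT and 237, 102 and 148 FPKM in Lsm14b-KO (log2 fold change -1.12, adjusted p 0.0606 in limma). Its groups did not overlap, and replicate 1 was nearest to WT. Rps24 had 455, 428 and 309 against 488, 119 and 232 FPKM, and Rps6, the substrate of the S6 kinases, had 35.7, 38.5 and 32.4 against 41.9, 14.6 and 21.4 FPKM. In both, replicate 1 was the highest of all 6 libraries. Rps9 (217, 232 and 172 against 200, 109 and 164 FPKM) and Rps26 (48.8, 66.0 and 59.5 against 38.9, 27.0 and 64.8 FPKM) overlapped between the groups. Rps14, a platform protein lost in the 5q- syndrome, had 45.2, 46.1 and 40.7 against 36.5, 25.4 and 30.4 FPKM, which did not overlap (-0.51, adjusted p 0.184 in limma). Of the low genes, Rps7 (2.19, 0.631 and 2.79 against 2.16, 2.06 and 1.32 FPKM) and Rpsa (1.42, 0.552 and 0.764 against 0.829, 0.730 and 1.45 FPKM) did not separate the groups. Rps21 had 2.02, 1.63 and 1.78 FPKM in WT and 1.37, 1.02 and 0 in Lsm14b-KO, and Rps27 had 2.83, 2.24 and 1.89 against 1.87, 0 and 1.84. The median difference of the 16 genes was -0.64 (log2).

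**Figure D3:**
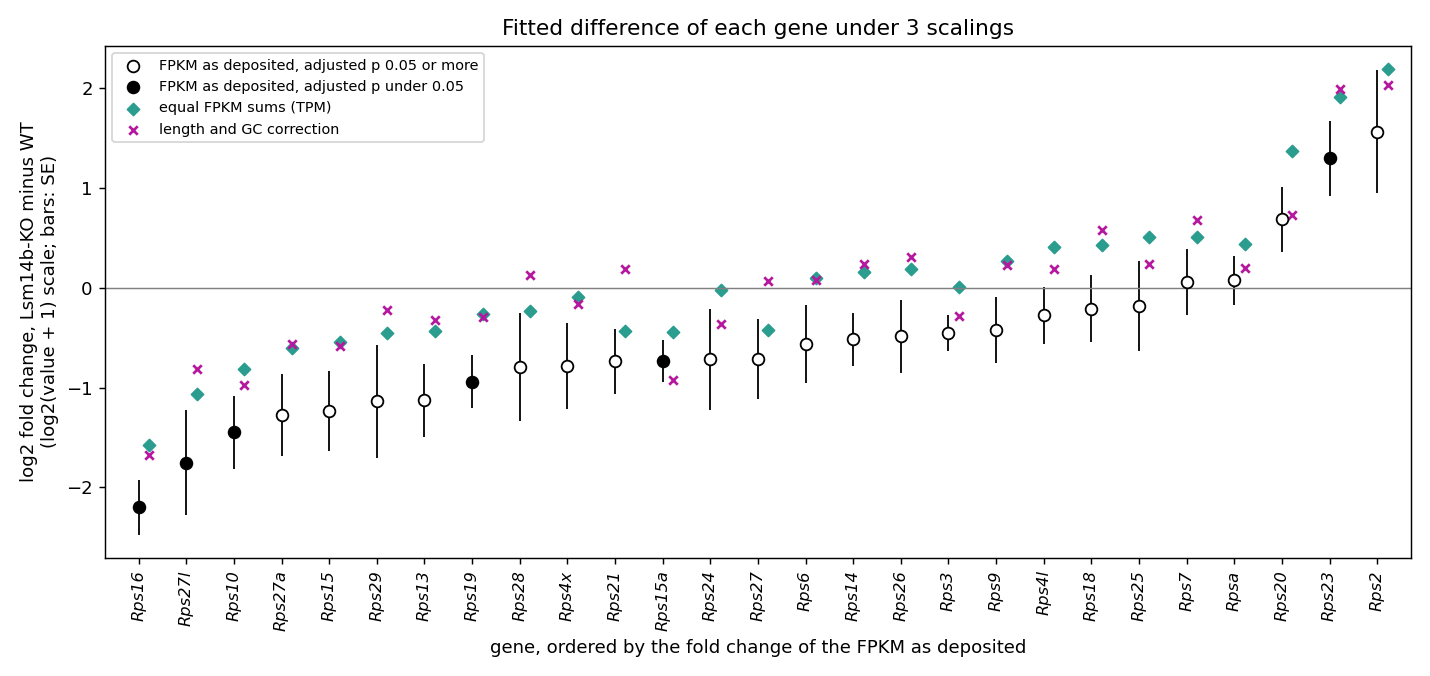
Log2 fold change (Lsm14b-KO minus WT) of 27 genes, ordered by the fit of the FPKM as deposited (circles, filled at an adjusted p under 0.05, bars SE), with the same value after scaling to equal FPKM sums (diamonds) and after correction for length and GC content (crosses). Rps12, listed at 0 in WT, is left out. Rps16 lay lowest and Rps23 and Rps2 highest under all 3.

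The symbol pattern holds 2 pairs of paralogs, Rps27l with Rps27 and Rps4x with Rps4l, whose differences within a pair were not tested. Rps27l (chromosome 9 from 66946086 to 66949516, plus strand, no near-identical copy) reached 443, 94.5 and 187 FPKM in the Lsm14b-KO libraries, all below the lowest WT library at 599 FPKM. It fell by 1.75 (log2, SE 0.53), with an adjusted p of 0.0492 in limma, close to the threshold, and in the 14 alternatives the adjusted p ran from 0.00045 to 0.153 in limma, with 5 of them past the threshold. Rps27l held 99.0% to 100% of the summed FPKM of Rps27l and Rps27 in every library of both groups. Rps4l, annotated as a transcribed processed pseudogene on chromosome 6 (148354656 to 148355598, plus strand, opposite to Tmtc1), had 94.8, 93.0 and 98.4 FPKM in WT and 97.3, 79.0 and 63.6 FPKM in Lsm14b-KO libraries (-0.27, adjusted p 0.485 in limma). Its partner Rps4x had 673, 212 and 341 FPKM in Lsm14b-KO libraries against 569 or more in WT, with replicate 1 within the WT range (-0.78, SE 0.43, adjusted p 0.208 in limma). Rps4x held 85.3% to 87.9% of the pair in WT and, in numerical order, 87.4%, 72.8% and 84.3% in the Lsm14b-KO libraries. The most abundant small-subunit mRNA was Rps27l in every WT library and Rps4x in every Lsm14b-KO library.

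The differences moved with the libraries. Lsm14b-KO replicate 2 was the lowest of the 3 Lsm14b-KO libraries for 25 of the 32 genes and replicate 1 the highest for 23. The median deviation of the 32 genes from the WT mean on the log2(FPKM + 1) scale was 0.05, 0.07 and -0.13 for WT and -0.14, -1.07 and -0.64 for Lsm14b-KO replicates 1, 2 and 3. For all tested genes it was -0.04, -0.14 and -0.07 in the 3 Lsm14b-KO libraries. Replicate 1 was therefore about as far below the WT mean as WT replicate 3, and the lower median of the group came from replicates 2 and 3. These were also the 2 libraries with the greatest estimated depth and the smallest FPKM sums, and the part of that in the result was not tested. Summed over the 32 genes, the FPKM were 4404, 4458 and 3606 in WT and 3713, 1352 and 2189 in Lsm14b-KO libraries (0.58 of WT on average). As a share of the library's FPKM sum they were 0.354%, 0.380% and 0.316% against 0.361%, 0.239% and 0.324%, which overlapped (0.350% ± 0.032 against 0.308% ± 0.062, SD, n = 3). In such libraries less RNA of a gene per oocyte cannot be told apart from a larger share of other RNA.

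**Figure D4:**
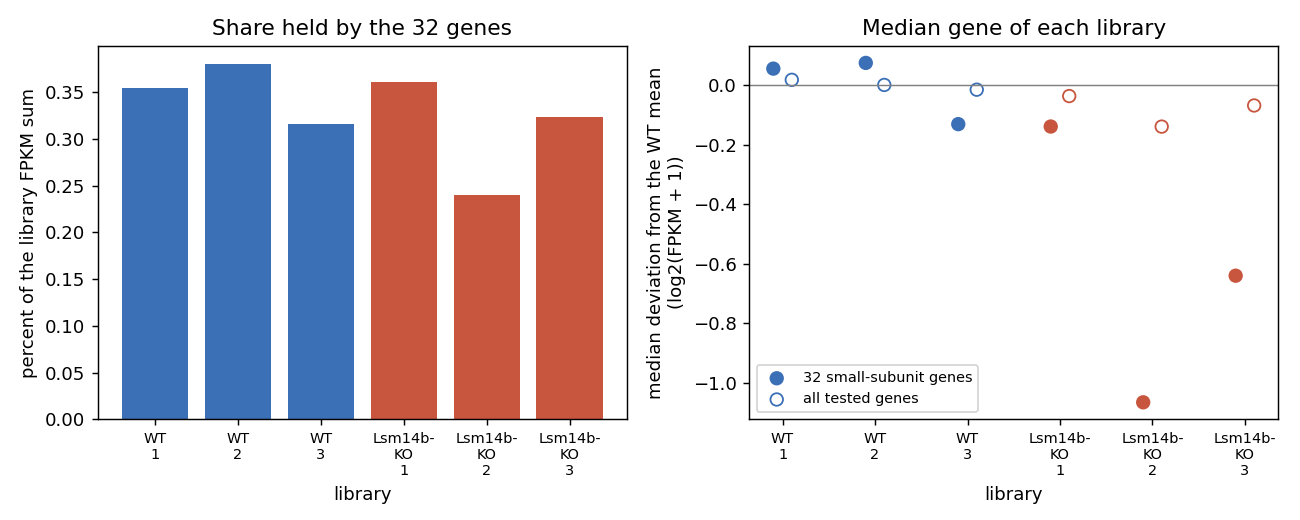
Left, the share of each library's FPKM sum held by the 32 genes, in percent, with 1 bar per library. Right, the median deviation from the WT mean in log2(FPKM + 1) of the 32 genes (filled) and of all tested genes (open). Replicates 2 and 3 of Lsm14b-KO lay at -1.07 and -0.64, and replicate 1 at -0.14, near WT replicate 3 at -0.13.

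Without Lsm14b-KO replicate 1, 20 of the 32 genes passed the test, 18 lower (56.2%) and 2 higher (6.25%, Rps2 and Rps23), while 28.7% and 18.3% of the 6280 genes then tested were lower and higher. Without WT replicate 1, 2 or 3, Rps16 was the 1 gene of the 32 that passed, of 408, 426 and 537 genes in all. The same held without Lsm14b-KO replicate 3, of 321 genes in all. With all 6 libraries 1383 genes passed, so the calls fell over the whole table as well. Without Lsm14b-KO replicate 2, Rps16 and Rps10 passed as lower and Rps23 as higher, of 915 genes in all.

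The scaling moved the direction for many of the genes. Bringing all libraries to an equal FPKM sum raised the median of all genes by 0.48 (log2), quantile normalization by 0.14 and the correction for transcript length and GC content by 0.18. Relative to the median of all genes, the median of the 32 was -0.64 in the values as deposited, -0.46 at equal sums, -0.30 under quantile normalization and -0.03 after the length and GC correction. Genes below and above 0 numbered 25 and 7 as deposited, 17 and 15 at equal sums, 19 and 13 under quantile normalization, and 15 and 17 after the correction. The called genes were 5 lower and 1 higher, 1 and 2, 2 and 2, and 3 and 1 in the same order. Over all genes the calls were 975 lower and 408 higher, 486 and 833, 735 and 540, and 788 and 649. These came from 6398 tested genes, or 6321 for the length and GC correction. Of all called genes 29.5%, 63.2%, 42.4% and 45.2% were higher. In all 4 scalings 13 genes lay below 0, among them Rps16, Rps10, Rps19, Rps15a and Rps27l. Another 7 lay above 0 in all 4, among them Rps2, Rps23, Rps20, Rps7 and Rpsa, and the other 12 changed side. The 7 include Rps12, whose sign follows from its 1 value above 0. Rps16 was called lower and Rps23 higher in each of the 4.

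The starts of the genes were searched for a TOP-like run. The letters CTTCC and CTTTC, which overlap in some genes, were looked for on the sense strand from 10 bases before to 20 bases after each start in RefSeq sequence (GRCm38.p6). The sequence table held 23 of the 32 genes, with 28 starts. Rps14, Rps20, Rps27a, Rps29 and Rps4l were among those with no entry. Of the 23 genes 9 (39.1%) had a match, against 3100 of 27025 genes (11.5%), and on the other strand 2 (8.7%) against 12.4%. A match is a description of these letters and not a site, and a start in the annotation may differ from the one used in oocytes. The windows of the 6 called genes are shown to compare those that fell with the 1 that rose, each with its first annotated start, 5′ to 3′, and the matches in capitals.
Rps16 (chr7:28350679-28350708, plus): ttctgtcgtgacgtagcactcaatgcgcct
Rps10 (chr17:27635225-27635254, minus): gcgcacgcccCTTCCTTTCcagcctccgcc
Rps19 (chr7:24884582-24884611, plus): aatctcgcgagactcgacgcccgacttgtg
Rps15a (chr7:118116128-118116157, minus): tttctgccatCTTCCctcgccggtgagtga
Rps27l (chr9:66946076-66946105, plus): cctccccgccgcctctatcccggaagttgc
Rps23 (chr13:90923112-90923141, plus): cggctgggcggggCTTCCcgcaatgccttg
Rps10 and Rps15a, which were lower, and Rps23, which was higher, held a match, and Rps16, Rps19 and Rps27l held none in these windows. With only 1 gene that rose, these windows cannot show whether the letters go with the direction, which was not tested.

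Proteins of the same subunit outside the symbol pattern had differences of the same sign without passing the test. Fau, which codes for a ubiquitin-like protein joined to RPS30, had 47.9, 58.5 and 51.6 FPKM in WT and 43.6, 20.3 and 32.5 FPKM in Lsm14b-KO libraries (log2 fold change -0.76, adjusted p 0.132 in limma). Rps3a1 (-0.42, adjusted p 0.305 in limma), Gnb2l1, the gene of the scaffold RACK1 (-0.60, adjusted p 0.297 in limma), and Rps27rt, which shares its locus in the table with Rps27 (-1.46, adjusted p 0.0658 in limma), made the 4 of the list. Of these 4, 0 were called in limma and 1 had an unadjusted p under 0.05.

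The genes of the large subunit and of the mitochondrial small subunit were set beside them. Of 45 tested Rpl genes 10 (22.2%, against 15.2% of all tested genes) were lower and 0 (against 6.38%) higher in limma, 17 had an unadjusted p under 0.05, with a median log2 fold change of -0.39. The largest called changes were in Rpl36al (7273 ± 578 FPKM in WT and 1457 ± 635 in Lsm14b-KO, SD, n = 3), Rpl35a, Rpl30 and Rpl14. Of 27 tested Mrps genes 12 (44.4%, against the same 15.2%) were lower and 0 higher in limma, 15 had an unadjusted p under 0.05, with a median of -1.14, led by Mrps18a (170 ± 11.3 against 7.10 ± 2.94 FPKM, SD, n = 3). No Rps gene fell as far as Mrps18a. The medians of the 3 families were not compared by a test. Relative to all genes, the Rpl median was -0.31 as deposited, -0.29 at equal sums, -0.16 under quantile normalization and 0.15 after the length and GC correction, so its side depended on the correction as well.

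Genes that build, regulate or rescue the small subunit were also counted. Of 24 tested assembly factors 3 were lower (12.5%) and 2 higher (8.33%), near the 15.2% and 6.38% of all tested genes. Emg1, a methyltransferase of the 18S rRNA, had 273 ± 15.3 FPKM in WT and 124 ± 44.4 in Lsm14b-KO (SD, n = 3, log2 fold change -1.19, adjusted p 0.0437 in limma), and Krr1, of the small-subunit processome, 14.6 ± 1.05 and 6.28 ± 1.37 (-1.11, adjusted p 0.0181 in limma). The others, named after their values were seen since they did not reach the mean of 5 FPKM set for naming, were Rcl1 (lower, -1.45, adjusted p 0.00484 in limma) and the late maturation factors Riok2 (higher, 1.24, adjusted p 0.00766 in limma) and Ltv1 (higher, 0.75, adjusted p 0.0463 in limma). Of 19 tested initiation factors that bind the 40S subunit, 7 had an unadjusted p under 0.05 in limma. At an adjusted p under 0.05 in limma 0 were lower, against 15.2% of all tested genes, and 2 were higher (10.5%, against 6.38%). They were Eif3l, with 3.86, 2.43 and 3.43 FPKM in WT and 6.71, 10.2 and 6.15 in Lsm14b-KO (1.02, adjusted p 0.0299 in limma), and Eif1a, named after its values were seen, with 0.483, 0.0845 and 0.562 FPKM in WT and 2.25, 2.23 and 1.91 in Lsm14b-KO (1.20, adjusted p 0.00917 in limma). Eif1a reached the filter's 1 FPKM only in Lsm14b-KO libraries, so its direction was set by the filter, and among the 15 initiation factors that reached it in both groups 1 was higher. Of 6 tested regulators of TOP mRNAs and S6 kinases 0 were lower and 1 was higher (16.7%, against 6.38% of all tested genes). This was Larp4b, with 0.511, 0.847 and 0.883 FPKM in WT and 1.33, 10.3 and 8.01 in Lsm14b-KO (1.83, adjusted p 0.0459 in limma, named after its values were seen). It too reached 1 FPKM only in Lsm14b-KO libraries, and of the 4 regulators that did so in both groups, 0 were called in limma. Of 4 tested genes for the ubiquitylation and rescue of the subunit 2 were higher. They were Rnf14, a ligase acting on stalled ribosomes (2.38 ± 0.520 and 6.47 ± 1.25 FPKM, 1.14, adjusted p 0.0136 in limma), and G3bp1, with 0.416, 0.0910 and 0.101 FPKM in WT and 1.41, 0.747 and 1.10 in Lsm14b-KO (0.79, adjusted p 0.0402 in limma). G3bp1 was named after its values were seen. G3bp1 reached 1 FPKM only in Lsm14b-KO libraries, and of the 2 genes of this list that did so in both groups, 1 was higher.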

How the data were processed

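The authors trimmed the paired reads, aligned them to mm10 with TopHat2 (version 2.0.13) and deposited FPKM from Cufflinks (version 2.2.1), with columns of their own group comparison (fold changes, p-values and q-values), which were not used. The annotation is not given in the sources used here, the labels name different library kits, and strand was not stated, so overlapping genes cannot be told apart. The 3 WT and 3 Lsm14b-KO libraries were grouped by title. The deposited FPKM were transformed to log2(FPKM + 1), which understates changes of low genes, and the 6398 genes that reached 1 FPKM in any library were fitted with limma 3.58.1 in R 4.3.3 (lmFit and eBayes with trend, genotype only, two-sided, Benjamini-Hochberg adjustment over all tested genes, threshold 0.05). The fit was tested on simulated data. Relative depth was estimated from ratios of the lowest FPKM, and counting error cannot be given. All small-subunit genes enter the counts, medians and sums, and some are not reported here singly. For other lists the rule was to name up to 4 called genes of at least 5 FPKM, or the 2 most abundant where there was none. Not every gene that the rule picked is given here. Some called genes that it did not pick were named after their values were seen, as said for each. The genes and lists were chosen with earlier results of these data known. Positions came from GENCODE vM21, where 32 of 32 symbols matched, and copies from blastn 2.17.0. Alternatives changed the pseudocount, filter, scaling, zeros, block and libraries.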

Additional observations from a re-analysis of the deposited data

How the results depend on the processing

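Lsm14b kept its direction and its side of the threshold in all 14 alternatives (adjusted p 0.00121 to 0.0277 in limma), as did Rps16. With no filter on low values 720 genes passed in place of 1383, and 1 of the 32 small-subunit genes in place of 6, where more genes were tested. At equal FPKM sums 3 of the 32 passed, of 1319 genes in all. Leaving out 1 library at a time gave 321 to 2952 genes, and 1 to 20 of the 32. The median log2 fold change of the 32 moved to -0.058 at equal sums, -0.24 under quantile normalization and 0.075 after the length and GC correction. That of the Rpl genes reversed to 0.11 at equal sums and 0.26 after the correction. The head median moved to -0.22 and -0.23, and the body and platform median to 0.039 and 0.13 in the same settings, and to -0.026 under quantile normalization. Single genes that changed sign at equal sums were Rps14 (0.16), Rps18 (0.43), Rps25 (0.51), Rps26 (0.19), Rps3 (0.0045), Rps4l (0.41), Rps6 (0.10) and Rps9 (0.27). Under quantile normalization they were Rps18 (0.090), Rps24 (0.011), Rps25 (0.45), Rps26 (0.03), Rps4l (0.30) and Rps9 (0.25). After the length and GC correction they were Rps14 (0.24), Rps18 (0.58), Rps21 (0.19), Rps25 (0.24), Rps26 (0.31), Rps27 (0.068), Rps28 (0.13), Rps4l (0.19), Rps6 (0.083) and Rps9 (0.23). The cause was not tested. Without single libraries the sign turned for Rps7 (-0.30 to -0.02), Rpsa (-0.079 to -0.063) and Rps25 (0.26, against -0.62 at the other end of its range). The share of summed FPKM in Lsm14b-KO over WT stayed at 0.80 to 0.98 without any 1 library. The replicate numbers were not used to pair the samples in the main fit. The deviations of same-numbered libraries from their group means correlated at 0.190, -0.128 and 0.018. The highest value, 0.306, was that of WT replicate 3 with Lsm14b-KO replicate 2. With 3 libraries per group such values cannot show whether same-numbered libraries were handled together. With replicate as a block 4 of the 32 genes passed, 4 lower and 0 higher, of 1244 in all. The FPKM hold no counts, so depth limits the low genes most, and no interval for counting error can be given.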
